A study of Mus musculus with 12 samples.

Results

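Cd24a, the mouse gene for the surface glycoprotein CD24 (heat-stable antigen), was followed in sorted cells of the enteric nervous system; it is 1 of 50508 gene models in the count table, of which 26350 held at least 1 unique molecular identifier (UMI, a tag that counts each captured RNA molecule once). It was chosen because an earlier pass over the same table found it higher after irradiation in the sums of neuron-like CD49b- wells. Its values in that contrast are therefore given below as a description, without a test. Tests are given for the difference between the sort gates in homeostasis, for irradiation in the glial gate, and for differences between wells of the same plate. The tests between wells of the same plate all take in the irradiated CD49b- plates that chose the gene. The other tests were fitted on all 12 plates, so those irradiated plates enter their error. Where they also enter the difference between the gates, this is said beside it.

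The material came from C57BL/6 mice. Cells were taken from the LMMP, the layer of gut wall made of longitudinal muscle with the myenteric plexus, and sorted singly into 96-well plates. All mice of all groups had received 3 mg tamoxifen, at 8 or 9 weeks of age, and all sorted cells were Dclk1-tdTom+, so that only cells labelled by this reporter were seen. The labels call CD49b- cells neuronal and CD49b+ cells glial; CD49b is an integrin chain at the cell surface. The homeostasis groups (CD49b- and CD49b+, 3 plates each) were collected 10 days after tamoxifen. The irradiated groups (CD49b- and CD49b+, 3 plates each) received 10.5 Gy at 7 days after tamoxifen and were collected 3 days after irradiation, also at 10 days after tamoxifen. Each plate held cells pooled from 2 mice, and 1 pool filled both the CD49b- and the CD49b+ plate of a given number, so that 6 mice stood behind each treatment.

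CD24 is a very short protein core that is attached to the outer membrane leaflet by a glycosylphosphatidylinositol (GPI) anchor and carries a heavy, mucin-like coat of O-linked and N-linked sugars. It has no part inside the cell, and it is known to signal through Src family kinases gathered in lipid rafts and to bind partners such as P-selectin, Siglec receptors and the adhesion molecule L1. It marks immature lymphocytes, granulocytes and many epithelia, and in the nervous system it is known from differentiating neurons and their growing neurites.

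On GRCm38 the gene lies on the plus strand of chromosome 10, from 43578284 to 43584265 (ENSMUSG00000047139.9), with 3 annotated transcripts. Transcript Cd24a-201 has 2 exons, at 43579169 to 43579322 and at 43582604 to 43584265, and 1503 of its 1816 bases are the stop codon and 3′ UTR in exon 2. Its coding sequence of 231 bases, stop codon included, encodes 76 amino acids and is shown because so short a reading frame is the whole of the protein before its sugars and anchor are added. The 69 bases from exon 1, which hold the start codon, are in lower case, and the 162 bases from exon 2 are in capitals.
Cd24a-201 coding sequence, chr10:43579254-43582765, plus strand: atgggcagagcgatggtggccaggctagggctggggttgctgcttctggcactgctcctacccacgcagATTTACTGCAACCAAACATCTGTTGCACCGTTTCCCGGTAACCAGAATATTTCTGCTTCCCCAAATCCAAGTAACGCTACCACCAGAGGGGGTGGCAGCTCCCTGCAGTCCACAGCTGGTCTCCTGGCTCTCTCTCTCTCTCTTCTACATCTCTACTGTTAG
Of the 1786 words of 31 bases in this transcript, 127 (7.11%) also occur in transcripts of other gene models, all of them in the processed pseudogenes Gm6212 and Gm15352. Reads from those words could be placed on either gene, so a part of the Cd24a count is uncertain in that respect. Where the reads fall on the transcript is not known here, so the size of that part was not measured.

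Of the 1150 wells in the table, 964 were retained (at least 1000 UMIs, at least 500 genes and under 20% mitochondrial UMIs). Retained wells numbered 78 to 93 on CD49b- plates and 60 to 84 on CD49b+ plates. The median depth per well was 5904 to 8335 UMIs on CD49b- plates and 2110 to 2680 on CD49b+ plates, so a gene at the same relative level is detected in fewer CD49b+ wells. The gates held what their labels say: 517 of 528 CD49b- wells had at least 10 UMIs of 8 enteric neuron markers, and 432 of 436 CD49b+ wells had at most 6. The other 4 CD49b+ wells had 38 or more such UMIs, 1 on irradiated replicate 1 and 3 on irradiated replicate 2. Uchl1, a member of that neuron list, is listed at 0 in every retained well.

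Cd24a had 969 UMIs in the whole table, of which 906 lay in retained CD49b- wells and 59 in retained CD49b+ wells. In homeostasis, the CD49b- plates of replicates 1, 2 and 3 held 74, 76 and 141 Cd24a UMIs, which is 130, 127 and 203 CPM. CPM here is the count per 1000000 UMIs of the plate, scaled by TMM library factors. In the irradiated CD49b- plates, the counts were 128, 232 and 255 UMIs, or 265, 337 and 398 CPM. Values of parts of a plate below are CPM without this scaling and are called unscaled CPM. All 3 irradiated CD49b- plates thus lay above all 3 homeostasis plates, and this order is the pattern for which the gene was chosen. The share of all genes with this order was not counted. The CD49b+ plates held far fewer molecules: 7, 8 and 13 UMIs in homeostasis (41.5, 44.4 and 69.7 CPM) and 22, 8 and 1 UMIs after irradiation (133, 37.8 and 6.80 CPM). The group means were, from highest to lowest, 333 ± 66.2 CPM in irradiated CD49b- cells, 153 ± 43.0 in homeostasis CD49b- cells, 59.3 ± 65.9 in irradiated CD49b+ cells and 51.9 ± 15.5 in homeostasis CD49b+ cells (SD, n = 3 plates each). The last 2 of these groups overlapped, with all homeostasis CD49b+ plates inside the wider range of the irradiated CD49b+ plates.

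**Figure D1:**
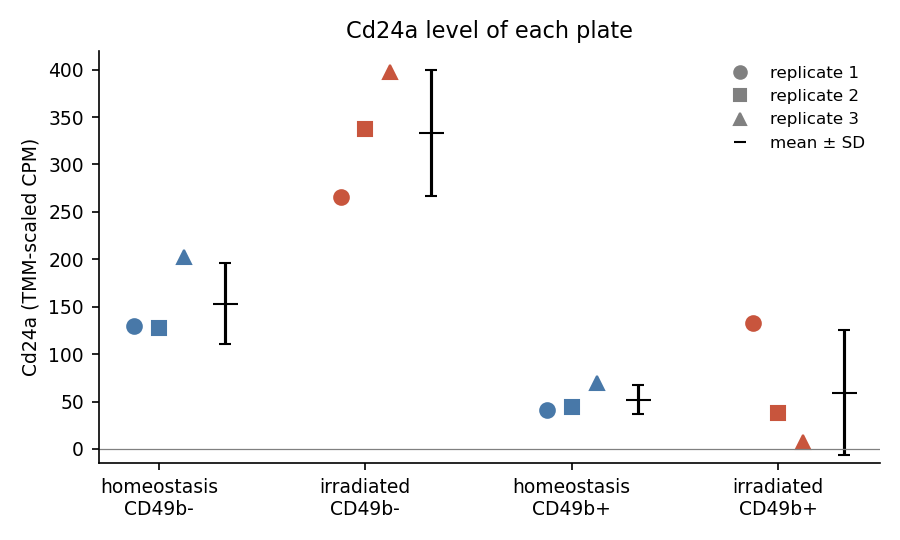
Cd24a level of each plate in TMM-scaled CPM (vertical axis) for the 4 groups; symbols mark replicates 1 to 3, and the bar beside them is the mean ± SD of 3 plates. The irradiated CD49b- plates lie at 265 to 398 CPM, above the homeostasis CD49b- plates at 127 to 203 CPM, and 1 irradiated CD49b+ plate, at 133 CPM, stands apart from the other 5 CD49b+ plates.

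Cd24a was lower in the glial than in the neuronal gate. In homeostasis, the difference between CD49b+ and CD49b- plates was -1.55 on the log2 scale (SE 0.442, edgeR quasi-likelihood test with Benjamini-Hochberg adjustment over 8555 genes, adjusted p = 0.00559), a level 2.94-fold lower in CD49b+ cells. This contrast was added after the data had been seen. It compares the homeostasis plates only, but the fit, with its gene filter and error, used all 12 plates. Its CD49b- plates were the low side of the contrast that chose the gene. The gates differ in many genes: 4238 of the 8555 genes tested, or 49.5%, passed the same test in either direction, so passing it sets Cd24a apart from few genes. Averaged over treatments, the difference was -2.02 (SE 0.303, adjusted p = 4.36e-06; 5311 genes, or 62.1%, were called), or 4.06-fold. That average includes the irradiated CD49b- plates, whose high values chose the gene, so its larger size is a description. For the average, with the mouse pool as a block the difference was -2.05. Without the 4 CD49b+ wells that held neuron markers, it was -2.59, and within wells of at least 3000 UMIs it was -1.47 (adjusted p = 0.00251). The p-values measure the spread between plates of pooled mice.

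Relative to its own neuronal level, Cd24a was less reduced in the glial gate than the neuron genes named next; this is a description without a test. In homeostasis its CD49b+ level was 33.9% of its CD49b- level. For Snap25, a synaptic fusion protein, that share was 0.529%, for the peripheral neurofilament-like gene Prph 0.870%, and for the RNA-binding protein gene Elavl4 0.889%. For Ret, the receptor for glial cell line-derived factors, it was 0%. Nos1, Calb2 and Tac1, which are used below to divide neurons, were at 0.787%, 0.615% and 0.675%. The Cd24a molecules of homeostasis CD49b+ cells were scattered as single molecules: 25 of 223 wells had 1 UMI, 1 well had 3, and none had more. With every well thinned to 1000 UMIs, Cd24a was seen in 4.51% ± 0.947 of homeostasis CD49b+ wells and 10.6% ± 4.18 of homeostasis CD49b- wells (SD, n = 3), against 11.8% ± 5.46 and 37.7% ± 4.51 before thinning.

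Irradiation gave no detectable change of Cd24a in the glial gate. The fitted difference was 0.18 on the log2 scale (SE 0.561, edgeR quasi-likelihood test with Benjamini-Hochberg adjustment, adjusted p = 0.952), in a comparison in which 61 of 8555 genes, or 0.713%, were called. A single well carried the highest plate: on irradiated CD49b+ replicate 1, 17 of 22 Cd24a UMIs were in a well of 24748 UMIs with 138 UMIs of neuron markers. Without the 4 wells of this kind, the 3 irradiated plates stood at 31.3, 29.2 and 6.64 unscaled CPM of Cd24a, all under the homeostasis plates at 40.2, 44.8 and 68.4. The fitted difference then turned to -1.07 (SE 0.529), and it still did not pass (adjusted p = 0.582). This rests on 12 Cd24a UMIs in 209 irradiated wells and 28 in 223 homeostasis wells, so the depth limits it in both directions. Within wells of at least 3000 UMIs, the 4 neuron-marker wells included, the difference was 1.57 (SE 0.816, edgeR adjusted p = 0.469). Such wells numbered only 5 to 17 on a CD49b+ plate.

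In the neuronal gate, the description of irradiation is as follows. The fitted difference was 1.12 (log2, SE 0.316), or 2.17-fold, in a comparison in which 4 of 8555 genes, or 0.0468%, were called; Cd24a was not among these 4, and nothing is read from that since the contrast chose the gene. More wells held it: 34.4%, 35.9% and 42.9% of wells in homeostasis (exact 95% binomial intervals 24.9 to 45.0, 25.3 to 47.6 and 32.5 to 53.7) against 56.5%, 67.4% and 68.2% after irradiation (45.8 to 66.8, 56.7 to 77.0 and 57.2 to 77.9). The intervals cover counting error only. The mean number of UMIs in wells with any Cd24a went from 2.88 ± 0.667 to 3.58 ± 0.9999 UMIs per well (SD, n = 3). This is a ratio of 1.24 against 1.70 for the share of wells, but wells newly at 1 UMI lower that mean. The shares of wells with at least 2 and at least 5 UMIs had ratios of 2.01 and 2.125. The mean over all wells had a ratio of 2.11. All these measures depend on depth, which was similar in the groups (mean of the plates' median depths 7590 UMIs in homeostasis and 7035 after irradiation). With each well thinned to 3000 UMIs, the share of wells with Cd24a was 21.4% ± 5.12 in homeostasis and 44.4% ± 5.27 after irradiation, a ratio of 2.08.

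Few wells were rich in Cd24a in either state. In homeostasis, 163 of 262 CD49b- wells had none, 45 had 1 UMI, 31 had 2 to 4, 20 had 5 to 9 and 3 had 10 or more. After irradiation the same classes held 96, 61, 60, 35 and 14 of 266 wells. The richest well of a plate held 7 to 18 Cd24a UMIs in homeostasis and 14 to 25 after irradiation, which was 8.19% to 13.2% of the Cd24a UMIs of its plate. With that well left out of each plate, the ratio of the group means was 2.21.

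**Figure D2:**
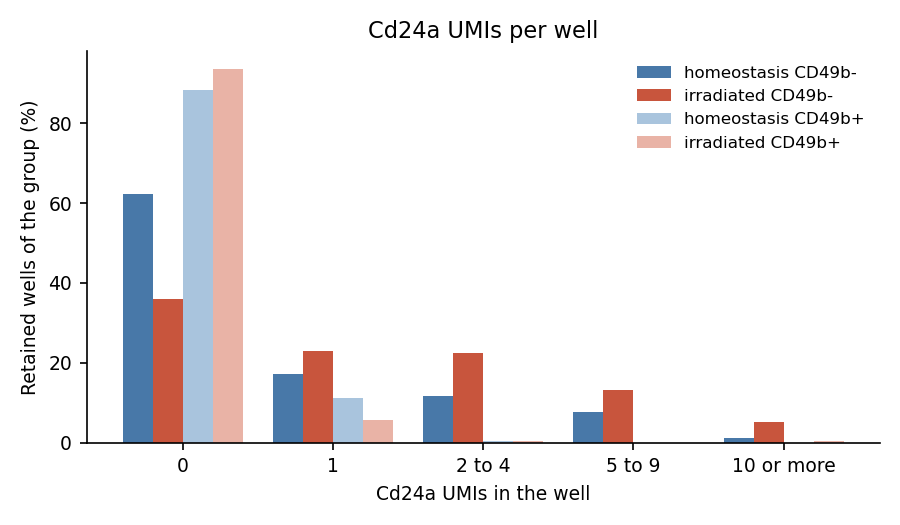
Share of retained wells (vertical axis, %) by the number of Cd24a UMIs in the well (horizontal axis), for the 4 groups. Wells without Cd24a make up 62.2% of homeostasis and 36.1% of irradiated CD49b- wells, while the classes from 2 UMIs up are nearly empty in the CD49b+ groups.

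Sets of plates and ages did not fall evenly over the treatments. The sample numbers in the labels place replicate 1 of both treatments in 1 set of plates (set A), the other irradiated plates in set B and the other homeostasis plates in set C. Within set A, with 1 CD49b- plate a treatment, Cd24a was at 130 CPM in homeostasis and 265 CPM after irradiation, a ratio of 2.04. Sets B and C hold 1 treatment each, so set and treatment cannot be told apart there. Among mice given tamoxifen at 8 weeks the ratio was 1.60 (166 CPM over 2 homeostasis plates, 265 on 1 irradiated plate), and at 9 weeks it was 2.89 (127 CPM on 1 homeostasis plate, 368 over 2 irradiated plates).

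The CD49b- wells were then divided by 3 markers of enteric neuron classes. Nos1 makes nitric oxide synthase and marks inhibitory nitrergic motor neurons. Calb2 (calretinin, a calcium buffer) and Tac1 (the precursor of substance P) are used in excitatory and other cholinergic neurons. At the threshold of 1 UMI, 339 of 528 wells held Nos1, 393 held Calb2 and 435 held Tac1, and these wells overlapped widely: 224 held both Nos1 and Calb2, and 344 both Calb2 and Tac1. At 5 UMIs the markers separated. Of 208 wells with Nos1 at 5 UMIs or more, 3 also held Calb2 at that level and 3 held Tac1, whereas 100 wells shared Calb2 and Tac1 (49.0% of 204 Calb2 wells and 54.9% of 182 Tac1 wells). Wells at 1 to 4 UMIs, which include Nos1 in wells rich in Calb2, numbered 131 for Nos1, 189 for Calb2 and 253 for Tac1. The threshold of 5 UMIs was chosen after these distributions and the Cd24a values by class had been seen. The planned threshold was 1 UMI, and the p-values for Cd24a at 5 UMIs below are no independent support.

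Cd24a was lower in wells with Nos1 than in other wells of the same plate. At 1 UMI, Cd24a stood at 93.1, 96.6 and 156 unscaled CPM in homeostasis wells with Nos1, and at 150, 215.5 and 234 in those without. After irradiation the values were 197, 301 and 345 with Nos1 and 359, 329 and 426 without. Wells with Nos1 were thus lower on 6 of 6 plates. With the plate as a term, the difference was -0.50 on the log2 scale (SE 0.120, edgeR quasi-likelihood test with Benjamini-Hochberg adjustment, adjusted p = 0.00448; 550 of 6346 genes, or 8.67%, were called). That call was lost with DESeq2 (adjusted p = 0.286), without a filter on low counts (0.0501) and without the plate term (0.0889), and it held when each plate was left out.

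At 5 UMIs, the threshold chosen after the Cd24a values had been seen, the Nos1 difference was larger. Wells rich in Nos1 had 41.4, 67.6 and 109 unscaled CPM of Cd24a in homeostasis against 158, 179 and 243 in the other wells, and 142, 213 and 196 against 316, 367 and 514 after irradiation. The fitted difference was -1.20 (SE 0.126, edgeR adjusted p = 8.82e-11; 1095 of 6418 genes, or 17.1%, were called), or 2.29-fold lower, with 6 of 6 plates in that direction. Leaving out each plate in turn gave -1.30 to -1.10.

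Wells with Tac1 went the other way, and this depended on the threshold, of which that of 5 UMIs was chosen afterwards. At 1 UMI, Cd24a was higher in wells with Tac1 on 5 of 6 plates, but the difference of 0.50 (log2, SE 0.186, 5 plates in the fit) did not pass (edgeR adjusted p = 0.316; 97 of 7159 genes, or 1.35%, were called). Irradiated replicate 2 was left out of that fit because only 8 of its wells lacked Tac1. With wells of at least 2 UMIs set against wells at 0, the difference of 0.67 passed (adjusted p = 0.0371). At 5 UMIs, wells rich in Tac1 held 187, 227 and 237 unscaled CPM of Cd24a in homeostasis against 84.3, 76.6 and 150 in the others, and 312, 432 and 446 against 205, 209 and 319 after irradiation. They were higher on 6 of 6 plates, by 0.84 (log2, SE 0.121, edgeR adjusted p = 1.21e-06; 605 of 7116 genes, or 8.5%, were called), or 1.80-fold.

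Calb2 divided Cd24a least. At 1 UMI the difference was -0.27 (log2, SE 0.145, 5 plates in the fit, edgeR adjusted p = 0.501; 191 of 7247 genes, or 2.64%, were called), and the log2 ratios of single plates in the fit ran from -0.906 to 1.11. Homeostasis replicate 1, with a log2 ratio of 1.47, was left out because only 6 of its wells lacked Calb2. Over all 6 plates, wells with Calb2 were higher on 3 and lower on 3. At 5 UMIs, the threshold chosen afterwards, wells rich in Calb2 were lower on 6 of 6 plates. The difference was -0.58 (SE 0.126, edgeR adjusted p = 7.50e-04), and 1082 of 6482 genes, or 16.7%, were called. Since wells rich in Calb2 are set there against a mixture of wells rich in Nos1, in Tac1 or in neither, the joint classes below are needed to read it.

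**Figure D3:**
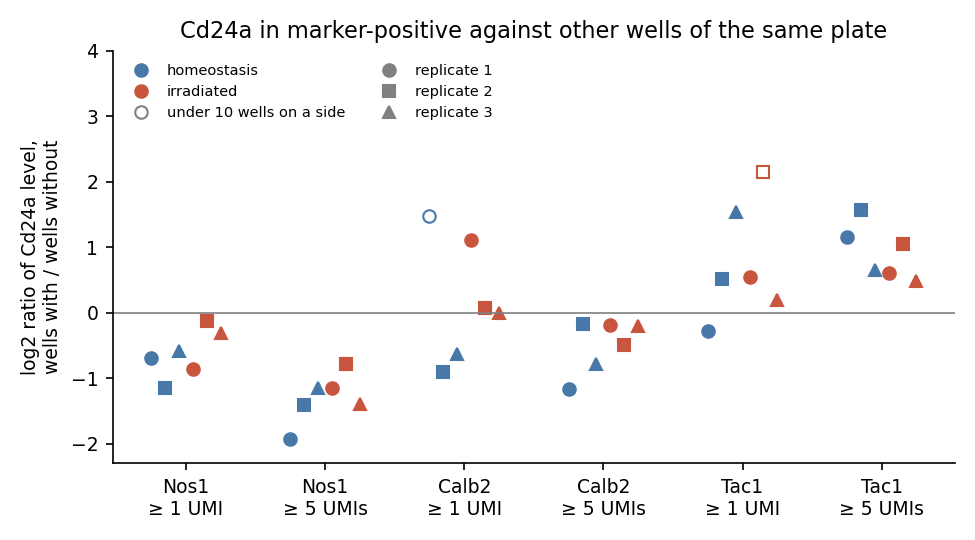
log2 ratio of the Cd24a level (unscaled CPM) in wells with a marker to that in the other wells of the same plate (vertical axis), for Nos1, Calb2 and Tac1 at 1 and at 5 UMIs (horizontal axis); each point is a plate, and open points have under 10 wells on a side and were left out of the fit. At 5 UMIs all 6 plates lie below 0 for Nos1 (-1.94 to -0.788) and Calb2 (-1.16 to -0.172) and above 0 for Tac1 (0.487 to 1.57).

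Among the 4 larger classes of wells rich in at least 1 of the 3 markers, Cd24a was highest in those with Tac1 alone. A further class, Nos1 together with Calb2 or Tac1, had 4 wells in homeostasis and 2 after irradiation and was left aside: in homeostasis it held 0, 109 and 686 unscaled CPM of Cd24a, from 1 or 2 wells a plate. In homeostasis, wells with Nos1 alone held 44.8, 66.5 and 51.0 unscaled CPM of Cd24a. Wells with Calb2 alone held 63.3, 23.5 and 119. Wells with both Calb2 and Tac1 held 96.6, 165 and 125. Wells with Tac1 alone held 305, 372 and 260, above every plate of the 3 classes named before. Wells with none of the markers were higher still on average but uneven, at 374, 355 and 897, from 4 to 6 wells a plate. In homeostasis, neighbours in this order overlapped except for Calb2 with Tac1 against Tac1 alone.

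After irradiation, wells with Tac1 alone again lay above every plate with Nos1 alone, Calb2 alone or both Calb2 and Tac1. Wells with Nos1 alone held 142, 211 and 199 unscaled CPM of Cd24a, a mean of 184 ± 37.1 against 54.1 ± 11.1 in homeostasis (SD, n = 3), a ratio of 3.40 with no overlap of plates. Wells with Tac1 alone held 456, 581 and 590, a mean of 542 ± 75.1 against 312 ± 56.8, a ratio of 1.74, again with no overlap. In the class with Calb2 and Tac1, the irradiated values were 147, 310 and 382 and overlapped homeostasis. In the class with Calb2 alone they were 285, 165 and 63.5, from 6 to 18 wells a plate, and overlapped too. In wells with none of the markers the means were 526 ± 223 after irradiation and 542 ± 307 in homeostasis. These ratios belong to the contrast that chose the gene, and they are given without a test. In sums of whole plates, edgeR called 0.0468% of all genes in that contrast. That is not the share of genes whose plates do not overlap, which was not counted, so the lack of overlap is a description.

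**Figure D4:**
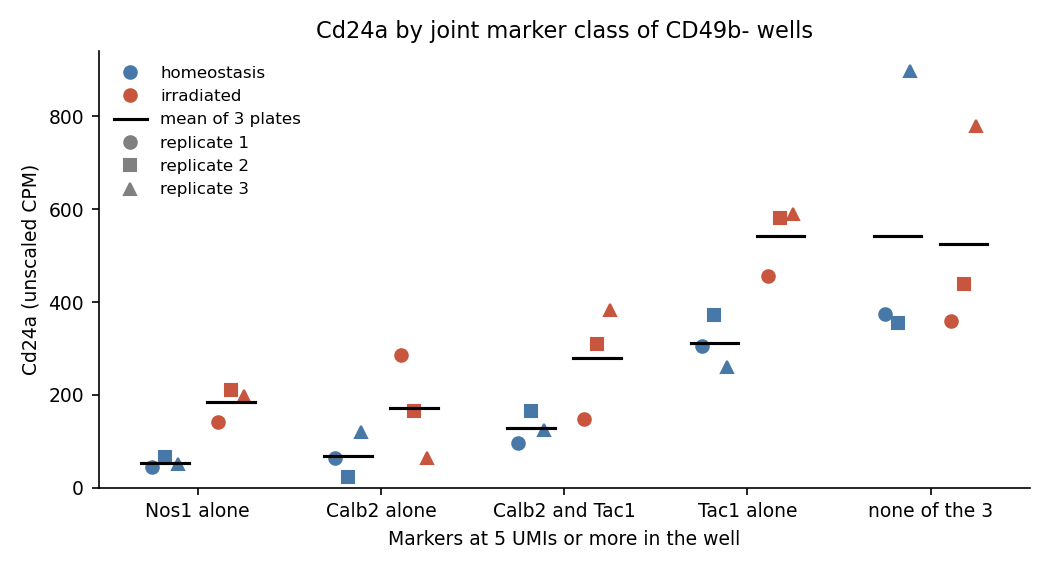
Unscaled CPM of Cd24a (vertical axis) in CD49b- wells grouped by which of Nos1, Calb2 and Tac1 they hold at 5 UMIs or more (horizontal axis); points are plates and black lines the mean of 3 plates. Wells with Tac1 alone lie at 260 to 372 in homeostasis and 456 to 590 after irradiation, and wells with Nos1 alone at 44.8 to 66.5 and 142 to 211.

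Among the same 4 classes, the share of wells with any Cd24a was also highest with Tac1 alone. In homeostasis it was 29 of 97 wells (29.9%) with Nos1 alone, 9 of 61 (14.8%) with Calb2 alone, 21 of 47 (44.7%) with Calb2 and Tac1, and 27 of 37 (73.0%) with Tac1 alone. After irradiation it was 58 of 105 (55.2%), 16 of 40 (40.0%), 35 of 53 (66.0%) and 42 of 42 (100%). In the small class of Nos1 with Calb2 or Tac1, 3 of 4 homeostasis wells and 2 of 2 irradiated wells had Cd24a. The low share in wells with Calb2 alone goes with a lower depth, a median of 5351 UMIs in homeostasis against 8180 with Nos1 alone and 8588 with Tac1 alone. The wells with none of the markers were 16 in homeostasis and 24 after irradiation; 32 of these 40 had at least 10 neuron marker UMIs, and 5 had 2 or more UMIs of fibroblast markers. Without those 5 wells Cd24a in the class was at 602 unscaled CPM, against 583 with them.

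Whether irradiation moved Cd24a more in wells of 1 kind than of another was tested within the same fits, and no such difference was detected. For Nos1 at 1 UMI the interaction was 0.39 (log2, SE 0.238, edgeR adjusted p = 0.989; 4 of 6346 genes, or 0.063%, were called). For Calb2 it was 0.98 (SE 0.290, edgeR unadjusted p = 0.00233, adjusted p = 0.392, with 13 of 7247 genes, or 0.179%, called), meaning a larger irradiation difference in wells with Calb2. That fit lacked homeostasis replicate 1, whose log2 ratio of 1.47 was opposite to the homeostasis plates in it (-0.906 and -0.633). The left-out ratio rests on 2 Cd24a UMIs in 6 wells without Calb2. For Tac1 it was -0.30 (SE 0.379, adjusted p = 1; 2 of 7159 genes, or 0.0279%). At 5 UMIs the interactions were 0.27 (SE 0.261), 0.39 (SE 0.254) and -0.35 (SE 0.240), with edgeR adjusted p = 0.988, 0.961 and 1. The errors leave room for differences of the size printed, so the ratio of 3.40 in wells with Nos1 alone and that of 1.74 in wells with Tac1 alone are not shown to differ.

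The mix of wells on the plates was also set equal. The share of wells with Nos1 alone ran from 29.0% to 51.3% over the 3 homeostasis plates and from 30.3% to 47.1% over the irradiated ones, and that of wells with Tac1 alone from 8.97% to 19.8% and from 12.9% to 19.1%. With every plate weighted to the pooled mix of the 5 classes, Cd24a was at 150 ± 23.96 unscaled CPM in homeostasis and 286 ± 48.7 after irradiation (SD, n = 3), a ratio of 1.90.

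Other markers of enteric neuron classes, taken at 5 UMIs, are described without a test; Npy, Vip and Penk went with the division by Nos1 and Tac1, and Cartpt, Gal and Slc18a3 did not. Cd24a was lower in wells rich in Npy, a peptide of a subset of nitrergic neurons, on 6 of 6 plates (plate means 92.3 unscaled CPM with and 270 without). It was also lower on 6 of 6 plates in wells rich in Vip, the vasoactive peptide of inhibitory neurons (182 and 247). It was higher in wells rich in Penk, the enkephalin precursor of excitatory neurons, on 5 of 5 plates with at least 5 wells on each side (516 and 200). Wells rich in Cartpt, a peptide precursor counted here among the nitrergic markers, did not follow Npy and Vip, with Cd24a higher on 6 of 6 plates (248 and 172). They numbered 22, 32 and 38 on homeostasis plates and 72, 35 and 74 on irradiated ones, so this cut did not take a like share of each plate. For Slc18a3, the vesicular acetylcholine transporter, Cd24a was higher on 4 plates and lower on 2. For Gal, the galanin precursor of inhibitory neurons, it was higher on 1 and lower on 1 of the 2 plates with at least 5 wells on each side.

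Genes that varied with Cd24a from well to well within a plate were found by Pearson correlation of log2(UMIs per 10000 + 1), averaged over the 6 CD49b- plates, among 5232 genes detected in at least 20% of wells. The 5 highest were Myl1, a myosin light chain (0.493), Nrsn2, neurensin, a vesicle membrane protein of neurons (0.459), Penk (0.454), Spock3, a matrix proteoglycan (0.409) and Serpini1, neuroserpin (0.397). Each was positive on 6 of 6 plates. These are counts in sparse wells that share a library, and Cd24a itself was seen in 50.9% of them, so the values are a description. The classes hold the same wells and are no further support. Penk was at 48.8 unscaled CPM in wells with Nos1 alone and 1749 in wells with Tac1 alone, Myl1 at 14.7 and 293, and Nrsn2 at 25.0 and 262. Spock3 was at 19.5 and 130, and Serpini1 at 75.7 and 218. In wells with Calb2 and Tac1, Cd24a was higher than with Nos1 alone (219 against 121), as were Penk, Myl1 and Spock3. Nrsn2 (12.6) and Serpini1 (27.8) were lower there than with Nos1 alone.

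**Figure D5:**
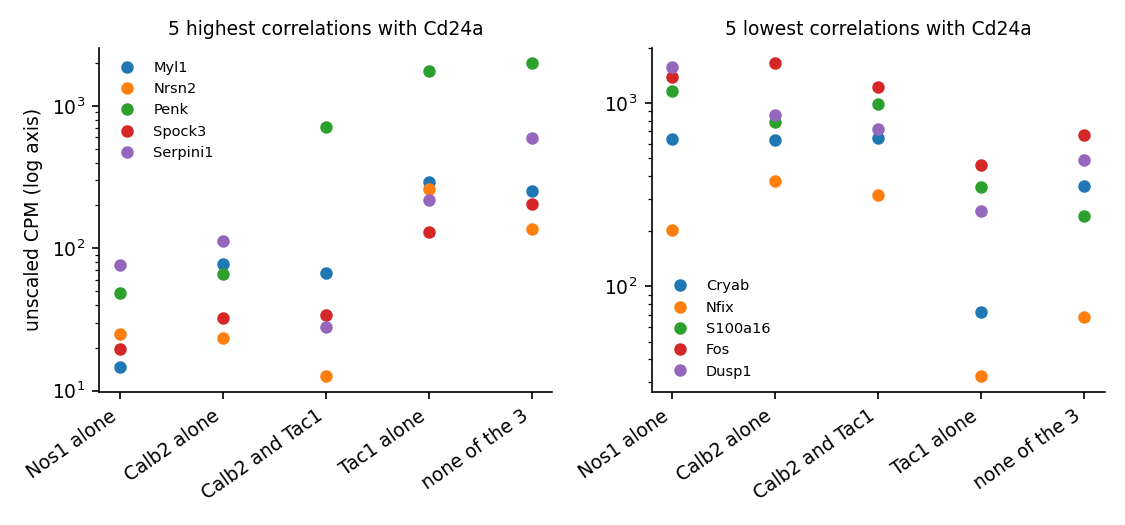
Level of the 5 genes with the highest (left) and the 5 with the lowest (right) mean within-plate correlation with Cd24a, in unscaled CPM on a log axis, in CD49b- wells of both treatments summed by joint marker class. Penk runs from 48.8 with Nos1 alone to 1749 with Tac1 alone, and Cryab from 635 to 72.6.

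Across plates, the genes most like Cd24a over all 12 plates, among 7044 genes with at least 20 CPM in CD49b- cells, were Parm1 (r = 0.958), Akr1a1 (0.952), Rps4l (0.946), Ndufb5 (0.946) and Eif4h (0.943). All 5 were higher in CD49b- than in CD49b+ cells in group means, and the 12 plates span both gates. Over the 6 CD49b- plates alone they were the predicted gene models Gm12285 (0.993), Gm29704 (0.991) and Gm3940 (0.985), the lysosome transport GTPase gene Arl8a (0.982) and B4galt6, a galactosyltransferase of lactosylceramide synthesis (0.978). These are the extremes of 7044 genes over 6 points and are no more than a description. The 3 gene models, unlike Cd24a, were higher in CD49b+ than in CD49b- cells in both treatments.

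Of 8 ligands and partners of CD24, 5 were tested between the gates, averaged over treatments. At the edgeR threshold, which 62.1% of all genes passed, 4 were higher in CD49b+ cells: Ncam1, the neural cell adhesion molecule (0.90, SE 0.149, adjusted p = 1.56e-05), Chl1, the close homologue of L1 (1.52, SE 0.185, adjusted p = 1.91e-07), Nrcam (3.40, SE 0.648, adjusted p = 9.00e-05) and the nuclear protein and alarm signal Hmgb1 (0.58, SE 0.240, adjusted p = 0.0394), all as log2 differences of CD49b+ minus CD49b-. L1cam itself differed by -0.25 (SE 0.174, adjusted p = 0.215). The median of the 5 was 0.900, against -0.132 over all genes. Among neurons, 4 partners were tested at 5 UMIs, and Chl1 was the 1 called with Nos1 and with Tac1. Over all genes, 17.1% were called with Nos1 and 8.5% with Tac1, so nothing is read from 1 call among 4. Chl1 was lower in wells rich in Nos1 (-0.86, SE 0.159, edgeR adjusted p = 2.92e-05) and higher in wells rich in Tac1 (0.84, SE 0.151, edgeR adjusted p = 7.83e-05). Cd24a had the same directions. L1cam, Hmgb1 and Ncam1 differed by 0.12, 0.04 and -0.01 with Nos1 and by 0.09, -0.15 and 0.06 with Tac1, and none of these was called.

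Of 18 GPI-anchored surface proteins of neurons, 11 were tested between the gates. Of these, 6 were lower in CD49b+ cells and 2 higher (median -0.701, against -0.132 over all genes), and 8 of 11 called is read against 62.1% of all genes. Thy1, the classic GPI-anchored neuronal antigen, fell between the gates like Cd24a (-3.57, SE 0.446, edgeR adjusted p = 3.02e-07) but divided neurons the opposite way, higher by 2.00 (SE 0.149) in wells rich in Nos1 and lower in wells rich in Tac1 (-1.42, SE 0.170, adjusted p = 2.87e-08). Prnp, the prion protein gene, divided them as Cd24a did (-0.76, SE 0.0707, with Nos1 and 0.70, SE 0.0734, with Tac1). Ly6e did so too (-3.17, SE 0.115, with Nos1 and 0.75, SE 0.111, with Tac1). In wells rich in Nos1, 2 of the 11 were called higher and 3 lower, against 17.1% of all genes called. In wells rich in Tac1, 3 were called higher and 2 lower, against 8.5%. Gfra1 and Gfra2, co-receptors for GDNF and neurturin, were at opposite ends, at 4.50 (SE 0.378) and -4.58 (SE 0.342) in wells rich in Nos1. Of the enzymes that build the anchor, 10 of 25 were tested between the gates, 2 were higher and 2 lower in CD49b+ cells (median -0.358), against 62.1% called over all genes.

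For the remaining lists few members had enough counts, and their calls between the gates stand against 62.1% over all genes. Fyn was the 1 of 7 Src family kinases tested, and it was lower in CD49b+ cells (-0.95, SE 0.306, edgeR adjusted p = 0.00994). Of 14 genes of O-glycosylation and sialylation, 4 were tested and 2 were higher in CD49b+ cells. Of 12 markers of immature neurons, 5 were tested, 3 were higher (Stmn1, Nes and Sox2, of which Nes and Sox2 are also genes of glia and progenitors) and 2 lower, Tubb2b among them (-3.83, SE 0.438, adjusted p = 7.54e-08). After irradiation, 0 of the 36 tested members of these 6 lists were called in CD49b- cells by edgeR (0.0468% of all genes were), with 1 at an unadjusted p under 0.05, and DESeq2 called 0 (2 unadjusted). In CD49b+ cells, where edgeR called 0.713% of all genes, it called 0 of the 36 (11 unadjusted) and DESeq2 called 1 (10 unadjusted).

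Cell types outside the sort that are known for CD24 were nearly absent from the neuronal gate. Summed over 528 CD49b- wells, 6 epithelial markers had 42 UMIs, 4 B cell markers 13, 4 neutrophil markers 6 and 4 erythroid markers 1, against 906 UMIs of Cd24a. On irradiated CD49b- plates the epithelial markers together reached at most 8.09 unscaled CPM, and on homeostasis plates at most 46.9. Fibroblast markers ranged from 0 to 296 unscaled CPM over homeostasis and from 0 to 237 over irradiated CD49b- plates, and without wells holding them the fitted irradiation difference of Cd24a was 1.10.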

How the data were processed

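Raw UMI counts per gene model and well were deposited by the authors as 1 table of 1150 wells on 12 plates; per the submitters' processing notes, STAR 2.5.3a and featureCounts 1.5.3 were used, with GRCm38 and GRCh38 named, and the annotation and strand setting are not given in the sources used here. Gene coordinates and the coding sequence are from GENCODE's mouse annotation on GRCm38. Plates share well barcodes by design (96 barcodes).

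Counts of retained wells were summed per plate, or per plate and marker class (at least 10 wells on each side), and tested with edgeR 4.0.16 (TMM factors, filter on low counts, quasi-likelihood test, Benjamini-Hochberg adjustment at 0.05 over all genes tested; R 4.3.3). Same-numbered plates of the 2 gates pair by mouse pool, per the labels; their deviations correlated at -0.03 to 0.14. Alternatives were DESeq2 1.42.0, other size factors, filters and well thresholds, thinning and left-out plates. Genes named for likeness are the 5 highest by each measure; the lowest are in the closing section. Cd24a and the gene lists were chosen with earlier results of these data known. No doublet caller was run on singly sorted wells.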

Additional observations from a re-analysis of the deposited data

How the results depend on the processing

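The gate difference kept its direction and call under 9 other settings (-2.59 to -1.47) and with each plate left out (-2.69 to -1.82). Among the settings was the contrast of homeostasis plates within the fit of all plates (-1.55). The replicate block by mouse pool gave -2.05 and changed no call. Irradiation in CD49b+ cells changed sign without the wells holding neuron markers (-1.07), was 1.57 within wells of at least 3000 UMIs and, over the left-out plates, ran from -1.08 (without irradiated CD49b+ replicate 1) to 0.66; none of these passed. In CD49b- cells the irradiation difference was 0.98 to 1.37 with a plate left out, 0.67 at a tamoxifen age of 8 weeks and 1.53 at 9 weeks; the cause was not tested. The Nos1 difference lost its call without a filter on low counts (-0.41), with DESeq2 (-0.53) and with no replicate block, that is no plate term (-0.48). At 5 UMIs the differences for Calb2 (-0.58) and Tac1 (0.84) passed, as did Tac1 at 2 UMIs against 0 (0.67). The irradiation by Tac1 interaction changed sign with wells thinned to 3000 UMIs (0.12) and, over left-out plates, ran from -0.56 to 0.13 (without homeostasis CD49b- replicate 3). The difference in the share of wells with Cd24a was 10.1 percentage points with wells thinned to 1000 UMIs, where fewer molecules are drawn, against 26.3. Counts of called genes moved by over 1.5 times: 1539 to 7094 for the gate (5311), 4 to 156 for irradiation in CD49b+ (61), 1 to 45 in CD49b- (4), 210 to 1095 for Nos1 (550), 36 to 1082 for Calb2 (191), 25 to 605 for Tac1 (97), and 0 to 17, 0 to 23 and 0 to 15 for the 3 interactions. The thresholds of 5 UMIs, the ages, the homeostasis contrast, the left-out neuron-marker wells and the equal mix were chosen after seeing the data. Depth limits CD49b+ cells most: 59 Cd24a UMIs in 436 wells.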

Other observations

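The genes that varied most against Cd24a from well to well within CD49b- plates were chosen after their values were seen. The 5 lowest mean correlations belonged to Cryab, a small heat shock protein gene (-0.503), Nfix, a transcription factor (-0.387), S100a16, a calcium-binding protein gene (-0.383), and the immediate early genes Fos (-0.376) and Dusp1 (-0.329), and each was negative on 6 of 6 plates. Wells with Tac1 alone at 5 UMIs, where Cd24a was high on every plate, held Cryab at 72.6 unscaled CPM against 635 in wells with Nos1 alone, Fos at 459 against 1394 and Dusp1 at 256 against 1574. These classes differ in both directions, and the part of class identity in the correlations was not tested.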
